A study of Homo sapiens with 102 samples.

Results

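The 8 genes BCR, ABL1, GRB2, CRKL, MAP2K1, MAP2K2, MAPK3 and STAT5B code for proteins along the signaling chain from the BCR-ABL fusion kinase to ERK and STAT5. They were chosen by name, and all 8 of 8 were found among the 24965 genes counted in the small 4 × 4 drug screens of Combi-Seq, a droplet method in which each drug of a pair brings its own barcode fragment and the ligated barcode primes reverse transcription. The cells were K562, an established chronic myeloid leukemia line that carries the BCR-ABL fusion, and all libraries were made after 12 h of incubation. A drug pair took 1 drug from each of 2 sources, which supplied the solvent DMSO, imatinib (an inhibitor of the ABL kinase), trametinib (an inhibitor of MEK) or YM115, a compound spelled as in the labels. The 16 ordered pairs were run 3 times in the dT screen and 3 times in the Bio screen, which used another barcoding scheme, so that each screen held 48 in-screen libraries, and 3 separate DMSO controls were added to each screen. A library pools the cells of its drug pair, so that fewer cells and less RNA per cell cannot be told apart. All cells derive from 1 cell line, and the labels give no drug concentrations.

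BCR-ABL arises when the front part of the BCR gene is joined to most of ABL1, which leaves the kinase constantly active. The fusion protein binds the adaptor GRB2 and phosphorylates the adaptor CRKL, a classical readout of its activity, and the signal passes through RAS and RAF to the kinases MEK1 and MEK2 (MAP2K1 and MAP2K2), which phosphorylate ERK1 (MAPK3). STAT5B is a transcription factor that the fusion kinase activates in parallel. Imatinib and trametinib act on the activity of these proteins, and the measurements here are of their mRNAs.

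The barcode primers ended in oligo-dT, so that reads were collected near the 3′ ends of transcripts. On GRCh38 with GENCODE release 29, ABL1 lay at chr9:130713946-130887675 (plus strand) and BCR at chr22:23179704-23318037 (plus strand), while MAP2K1 lay at chr15:66386817-66492312 (plus strand) and MAP2K2 at chr19:4090321-4124129 (minus strand). The last 30 bases before the annotated end of the transcript that reaches the most distal coding-transcript end are given for these 4 genes, because the fusion mRNA ends with the ABL1 end and because MAP2K1 and MAP2K2, which code for close paralogs, differed most in their counts.
ABL1: tttttaAATAAAtcagtgtttacattagaa
BCR: acactttcATTAAAaagtttcctgagacga
MAP2K1: ataaaaggcccattcctttttagATTAAAa
MAP2K2: acaaaacaaaacagggagagaaaaagcaaa
Capitals mark a polyadenylation signal, searched on the transcribed strand as AATAAA or ATTAAA. ABL1 held the first form and BCR and MAP2K1 the second, and no match was found in this window for MAP2K2. Among 18907 transcripts, 52.3% held AATAAA in their last 30 bases, 14.3% held ATTAAA and 64.7% held either. These letters are a description of the window and not a mapped cleavage site. Reads counted for ABL1 can come from the normal or the fused mRNA, and the counts per gene do not separate them. Reads near the BCR end do not come from the BCR-ABL mRNA, which lacks that end.

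The in-screen libraries held 127042 to 759756 reads in dT and 17882 to 780143 in Bio. In-screen libraries with 1000 or more genes detected and no more than 15% mitochondrial reads were used, which kept 48 libraries in dT and 44 in Bio. The 4 Bio libraries left out included all 3 of Imatinib_Imatinib, in which markers of K562 cells summed to between 0 and 32.9 CPM (counts scaled to library depth), so that the label of these libraries could not be checked. In the libraries used, the fetal globin gene HBG2 was counted in 48 of 48 (dT) and 44 of 44 (Bio). Of the markers that K562 cells should lack, CD3D was counted in 12 dT and 5 Bio libraries and the others in at most 3. The separate controls held more genes than the in-screen libraries, while their reads lay within the in-screen range. They held 256671 to 458945 reads and 7410 to 10361 genes in dT, against 1837 to 5110 genes in-screen, and 35742 to 89347 reads and 5501 to 7058 genes in Bio. Mitochondrial reads made up 10.2% to 36.9% of them in dT and 5.10% to 28.1% in Bio, above the in-screen maximum of 7.33% in 5 of 6, and their part in the results below was not tested.

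MAP2K2 (MEK2) was the member counted most often. Reads were found in 47 of 48 dT and 38 of 44 Bio libraries, with 9689 and 8198 reads in sum. Its level ranged from 0 through a median of 552.8 to 2284 CPM in dT and from 0 through 407.1 to 3053 CPM in Bio, with means of 618 ± 553 CPM (SD, n = 48) and 680 ± 815 CPM (SD, n = 44). The other members were absent from many libraries in either screen. In dT, MAPK3 (ERK1) was counted in 34 libraries, the adaptor CRKL in 33, STAT5B in 31, ABL1 in 26, the adaptor GRB2 in 25, BCR in 23 and MAP2K1 (MEK1) in 7. In Bio, CRKL was counted in 19, BCR in 18, MAPK3 in 15, GRB2 in 13, STAT5B in 11, ABL1 in 9 and MAP2K1 in 1. The median library counted 5 of the 8 members in dT and 3 in Bio, and 0 in-screen libraries counted all of them.

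**Figure D1:**
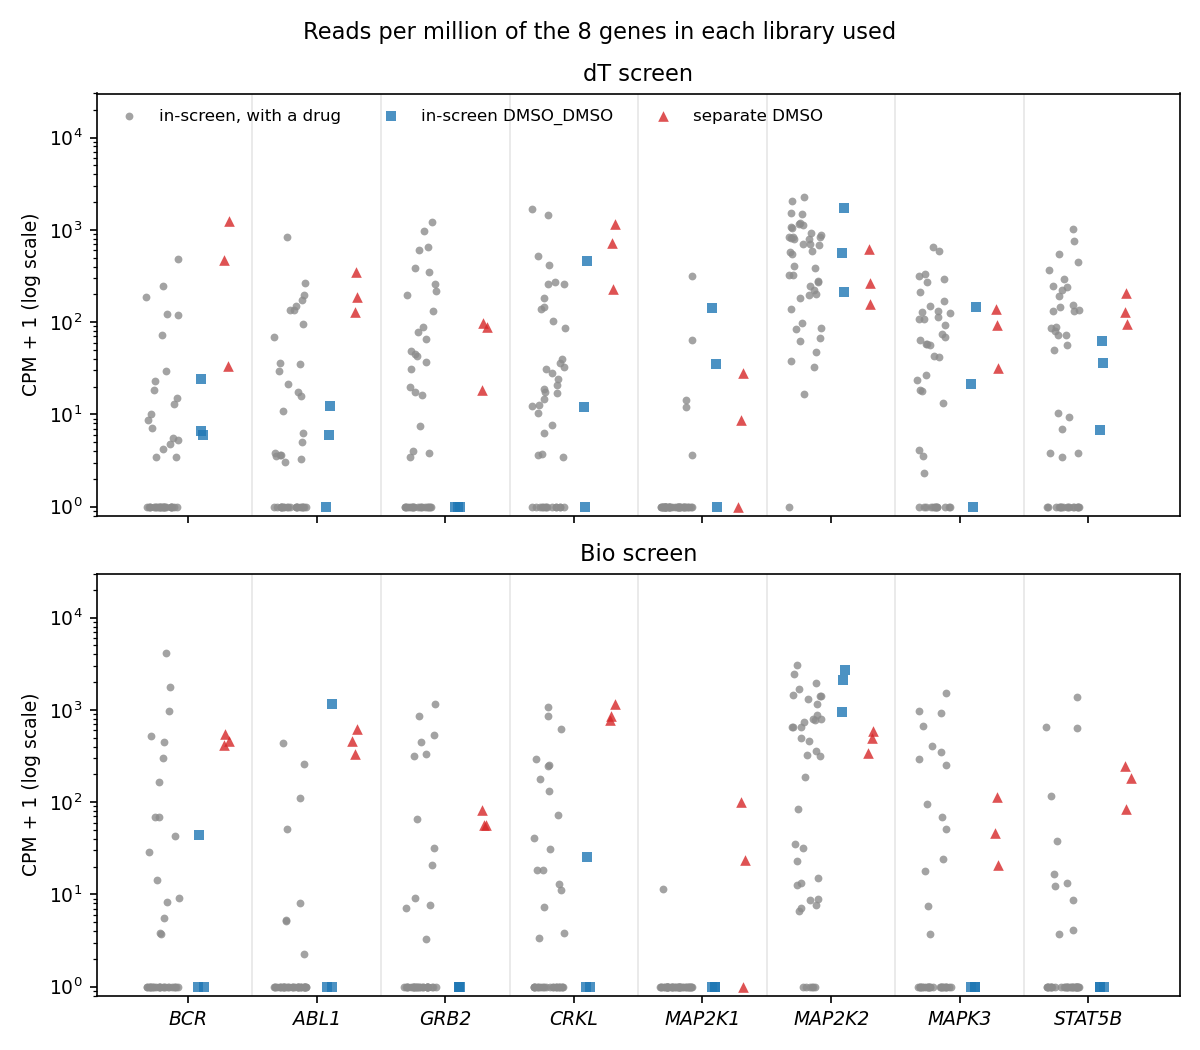
CPM + 1 on a log axis for each of the 8 genes, 1 point per library, in the dT screen (top) and the Bio screen (bottom); gray points are in-screen libraries with a drug, blue squares the 3 DMSO_DMSO libraries and red triangles the 3 separate DMSO controls. Points at the bottom are libraries with 0 counts; the separate controls lie off the bottom for every gene but MAP2K1, whereas in-screen libraries of every gene but MAP2K2 pile up there.

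Where a member was counted, it was often counted many times. In dT, 58.9% of the member values were above 0, of which 12.8% were a count of 1 and 38.9% were counts of at least 50. For all genes the shares were 13.99%, 26.2% and 30.6%. In Bio, 35.2% of the member values were above 0, against 7.94% for all genes. Means therefore rested on few libraries. The YM115_Trametinib library of run 3 held 413 of the 919 ABL1 reads of dT, and without it the dT mean of ABL1 fell from 46.8 to 30.1 CPM. The Trametinib_Trametinib library of run 3 held 147 of the 200 MAP2K1 reads of dT, and the mean was 12.0 CPM with it and 5.65 CPM without it. For STAT5B in Bio, the Trametinib_DMSO library of run 1 held 353 of 772 reads, and the mean was 65.3 CPM with it and 35.1 CPM without it.

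Levels between genes were compared per kilobase of exonic length, with the limit that 3′-end reads do not grow with length. In dT the order of mean levels per kilobase was MAP2K2 (118 CPM per kb), MAPK3 (25.5), CRKL (24.6), GRB2 (24.2), STAT5B (18.2), ABL1 (7.45), MAP2K1 (3.20) and BCR (2.35). In Bio it was MAP2K2 (130 CPM per kb), MAPK3 (35.1), GRB2 (18.3), CRKL (16.5), BCR (15.7), STAT5B (10.1), ABL1 (7.31) and MAP2K1 (0.0630). No gap between neighbors in either order was larger than the SDs over libraries of the pair, which for MAP2K2 were 106 and 156 CPM per kb. In the separate controls CRKL came first, with 132 CPM per kb in dT and 176 in Bio (SD 87.8 and 37.7, n = 3 each), and MAP2K2 second, with 66.3 and 90.5 (SD 46.8 and 23.7). The gap between them was larger than both SDs in Bio but not in dT.

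The separate DMSO controls and in-screen DMSO_DMSO share the solvent and the incubation time, so that their comparison asks what a member looks like in the more complex libraries. The DMSO_DMSO libraries held 174365 to 198316 reads in dT, fewer than any separate control there. In Bio they held 81806 to 147320 reads, mostly more than the separate controls. The part of this difference in depth was not tested. All members but MAP2K1 were counted in 6 of 6 separate controls, and MAP2K1 in 4. In the in-screen DMSO_DMSO libraries, by contrast, GRB2 had 0 counts in 3 of 3 dT and 3 of 3 Bio libraries, and MAPK3, STAT5B and MAP2K1 had 0 counts in 3 of 3 Bio libraries. A count of 0 over the 3 libraries allows a level of up to 5.42 CPM in dT and 8.72 CPM in Bio, with 3 counts as the limit and counting error only.

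BCR had 468, 1258 and 32.7 CPM in the dT separate controls and 5.54, 22.9 and 5.04 CPM in DMSO_DMSO. In Bio it had 420, 459 and 542 CPM against 43.5, 0 and 0 CPM. The separate controls were the higher ones and the groups did not overlap in either screen. How many of all genes were without overlap was not counted, here or for the members below. The median log2 fold change over all genes tested was 3.39 in dT and 5.63 in Bio, so that higher separate controls were common. The lack of overlap is thus a description of the values and cannot be read as particular to the members. The ratio of CPM over summed counts was 43.4 in dT (95% interval 19.8 to 119, exact and for counting error only) and 32.7 in Bio (13.4 to 103). ABL1 had 184, 351 and 126 CPM in the dT separate controls against 0, 11.5 and 5.04 CPM. In Bio it had 616, 336 and 462 CPM against 0, 0 and 1149 CPM. The groups did not overlap in dT, but in Bio a DMSO_DMSO library with 94 counts was the highest of the 6.

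Of the adaptors, CRKL had 714, 1161 and 227 CPM in the dT separate controls against 11.1, 0 and 459 CPM. In Bio its 783, 1164 and 864 CPM stood against 0, 0 and 24.4 CPM, from 2 reads. The Bio groups did not overlap and the dT groups did. GRB2 had 88.2, 97.4 and 17.4 CPM in dT and 56.0, 56.0 and 80.4 CPM in Bio, at least 10.6-fold and at least 7.22-fold higher than the limit of the DMSO_DMSO libraries. STAT5B had 127, 206 and 93.7 CPM in dT against 61.0, 5.74 and 35.3 CPM, again without overlap. In Bio its 83.9, 246 and 181 CPM stood against 3 libraries at 0, at least 22.3-fold higher than the limit.

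MAP2K2 went the other way in Bio. It had 261, 623 and 157 CPM in the dT separate controls and 554, 1743 and 212 CPM in DMSO_DMSO, with overlap. In Bio its 588, 492 and 342 CPM lay below the 2088, 957 and 2677 CPM of every DMSO_DMSO library. The ratio of CPM over summed counts was 0.381 in dT (95% interval 0.328 to 0.442) and 0.269 in Bio (0.211 to 0.339). These intervals are for counting error only and leave out the spread between libraries. MAPK3 had 138, 31.2 and 91.5 CPM in the dT separate controls against 144, 0 and 20.2 CPM, and MAP2K1 had 7.67, 27.3 and 0 CPM against 0, 34.4 and 141 CPM, both with overlap. In Bio, MAPK3 had 112, 44.8 and 20.1 CPM against 3 libraries at 0, without overlap and at least 5.90-fold higher than the limit. MAP2K1 had 0, 22.4 and 100.5 CPM in the Bio separate controls against 3 libraries at 0.

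None of these differences passed the test across all genes. With edgeR's quasi-likelihood test and Benjamini-Hochberg adjustment, 0 of 8 members tested passed an adjusted p of 0.05 in dT and 0 of 7 in Bio, where the shares of all genes called were 0.116% and 0.0432%. At an unadjusted p under 0.05 the member counts were 1 (GRB2) and 2 (CRKL and STAT5B). DESeq2 called 0 members in dT and 3 in Bio (STAT5B, adjusted p = 0.0118, MAPK3, 0.0185, and GRB2, 0.0368), all with 0 counts in DMSO_DMSO. By DESeq2, 527 genes (7.62%) were called in dT and 723 (15.6%) in Bio, against 8 and 2 by edgeR. The fitted log2 fold change in dT was 5.69 (SE 3.18, adjusted p = 0.296, edgeR) for BCR and 5.96 (SE 3.18, adjusted p = 0.296) for ABL1. These values stand beside a median of 3.39 over all genes tested in dT, which becomes 3.70 under RLE scaling (5.63 and 6.13 in Bio), so that a rise of this size was not particular to BCR and ABL1. MAP2K2 stood against that median, with -0.68 (SE 1.36, adjusted p = 0.793) in dT and -1.34 (SE 2.26, adjusted p = 0.660) in Bio.

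At the mean level of the separate controls, the median in-screen depth of a used library would yield 206 reads of BCR, 77.3 of ABL1, 246 of CRKL and 122 of MAP2K2 in dT, but 4.09 of MAP2K1. Of the 48 dT libraries, 6 reached the lowest BCR level of the separate controls, 7 that of ABL1 and 8 that of CRKL, but 37 that of MAP2K2. In Bio these numbers were 5, 2, 2 and 23 of 44. Most in-screen libraries thus lay below the lowest separate control in BCR, ABL1 and CRKL. For GRB2, MAPK3 and STAT5B, 19, 25 and 15 of 48 dT libraries and 7, 12 and 4 of 44 Bio libraries reached it. The values are reads and not molecules, and the part of depth was not tested.

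Across the 16 ordered pairs, MAP2K2 had a count in all 3 runs of 15 pairs in dT. The exception was DMSO_Imatinib, where run 2 had 0 reads. Its highest dT pair was Trametinib_Imatinib with 1055, 2284 and 2071 CPM (mean 1803 ± 657, SD, n = 3), and its lowest was YM115_Trametinib with 247, 66.7 and 181 CPM. The reversed pair Imatinib_Trametinib had 831, 97.2 and 61.4 CPM, below all 3 libraries of Trametinib_Imatinib. In Bio, Trametinib_Imatinib had 2475, 1949.6 and 781 CPM and Imatinib_Trametinib 31.3, 6.70 and 3053 CPM, which overlap. With 3 runs of each order the comparison cannot go below an exact two-sided permutation p of 0.10 when runs are ignored. Both orders were made in the same runs, and with that pairing the floor is higher. These pairs were also picked out after their values were seen.

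**Figure D2:**
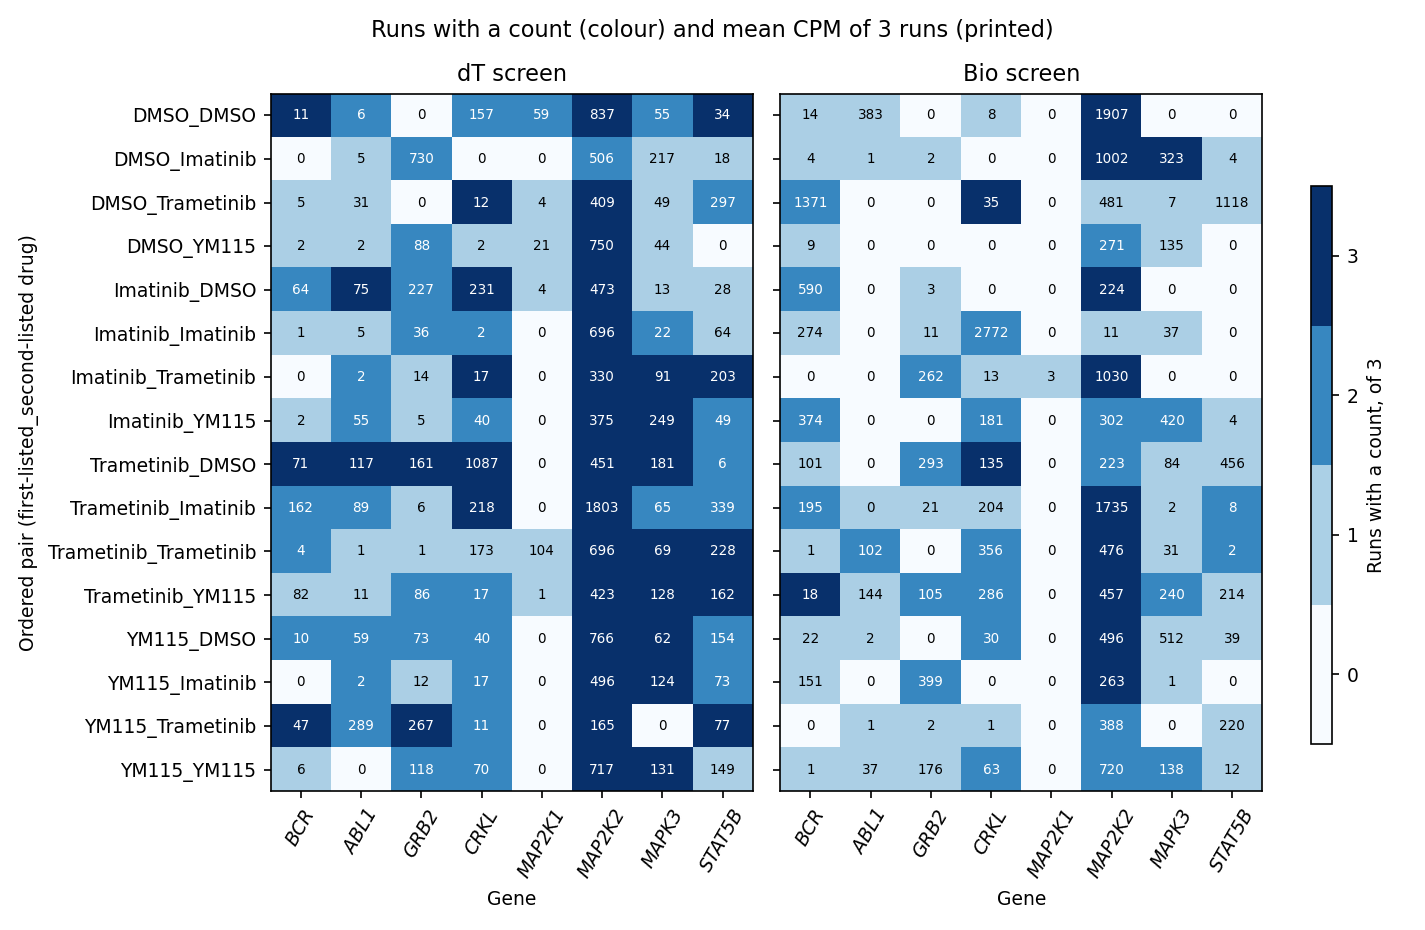
Number of runs with a count (color, 0 to 3) and mean CPM over the 3 runs (printed) for each ordered pair (rows, first-listed then second-listed drug) and gene (columns), in dT (left) and Bio (right, all libraries, including the 4 left out elsewhere). The MAP2K2 column is filled in nearly every row, and the MAP2K1 column is empty in 10 of 16 dT rows.

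CRKL was counted in all 3 runs of 5 dT pairs. Its highest pair was Trametinib_DMSO with 144, 1428 and 1689 CPM, and the reversed pair DMSO_Trametinib had 9.30, 16.3 and 11.8 CPM. These groups did not overlap, although both contain trametinib and DMSO. The pair was picked as the highest after its values were seen, and the share of all genes without overlap was not counted. In Bio, Trametinib_DMSO had 132, 30.3 and 243 CPM. There DMSO_Trametinib had 17.5 and 12.1 CPM in the 2 libraries used and 74.5 CPM in the library left out, which overlaps. GRB2 was highest in dT DMSO_Imatinib, with 1212, 977 and 0 CPM, and the 2 pairs of dT without any GRB2 read were DMSO_DMSO and DMSO_Trametinib.

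ABL1 was highest in dT YM115_Trametinib with 0, 34.6 and 832 CPM, and BCR in dT Trametinib_Imatinib with 162 ± 277 CPM (SD, n = 3), of which run 1 held 170 of 171 reads. MAPK3 reached 54.9, 107 and 584 CPM in dT Imatinib_YM115, and 0 CPM in all 3 runs of YM115_Trametinib. STAT5B reached 2.83, 1013 and 0 CPM in dT Trametinib_Imatinib. In these maxima 1 run held most reads, so that the spread between runs was as large as the mean or larger.

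A joint test asked whether any of the ordered pairs differed from DMSO_DMSO. In dT, 0 of 8 members passed (0.303% of all 6263 genes were called), and the smallest adjusted p was that of CRKL, 0.0703 (edgeR). In Bio, 0 of 7 members passed, where 22.9% of all 4888 genes were called by edgeR and 0 by DESeq2. There MAPK3 had an adjusted p of 0.0513 and BCR of 0.0517 (edgeR). At an unadjusted p under 0.05 the counts were 3 of 8 (BCR, GRB2 and CRKL) and 4 of 7 (BCR, ABL1, GRB2 and MAPK3). DESeq2 called CRKL in dT (adjusted p = 0.0413, where 2.16% of all genes were called) and 0 members in Bio. MAP2K2, the member with the most reads, had adjusted p-values of 0.895 and 0.807 (edgeR).

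Drug effects were then fitted with 1 term for each drug, whichever source it came from. No member passed an adjusted p of 0.05 for any drug in either screen. For imatinib these were 0 of 7 members tested in dT, where 2.88% of all genes were called, and 0 of 5 in Bio (2.34%). For trametinib they were 0 of 7 (1.37%) and 0 of 5 (1.94%), and for YM115 0 of 7 (2.62%) and 0 of 5 (2.74%). The counts at an unadjusted p under 0.05 and by DESeq2 were also 0 in these 6 comparisons. MAP2K1 was too sparse to be tested in dT, and MAP2K1, ABL1 and STAT5B in Bio. With 5 to 7 genes tested, 0 calls do not stand apart from these background shares.

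**Figure D3:**
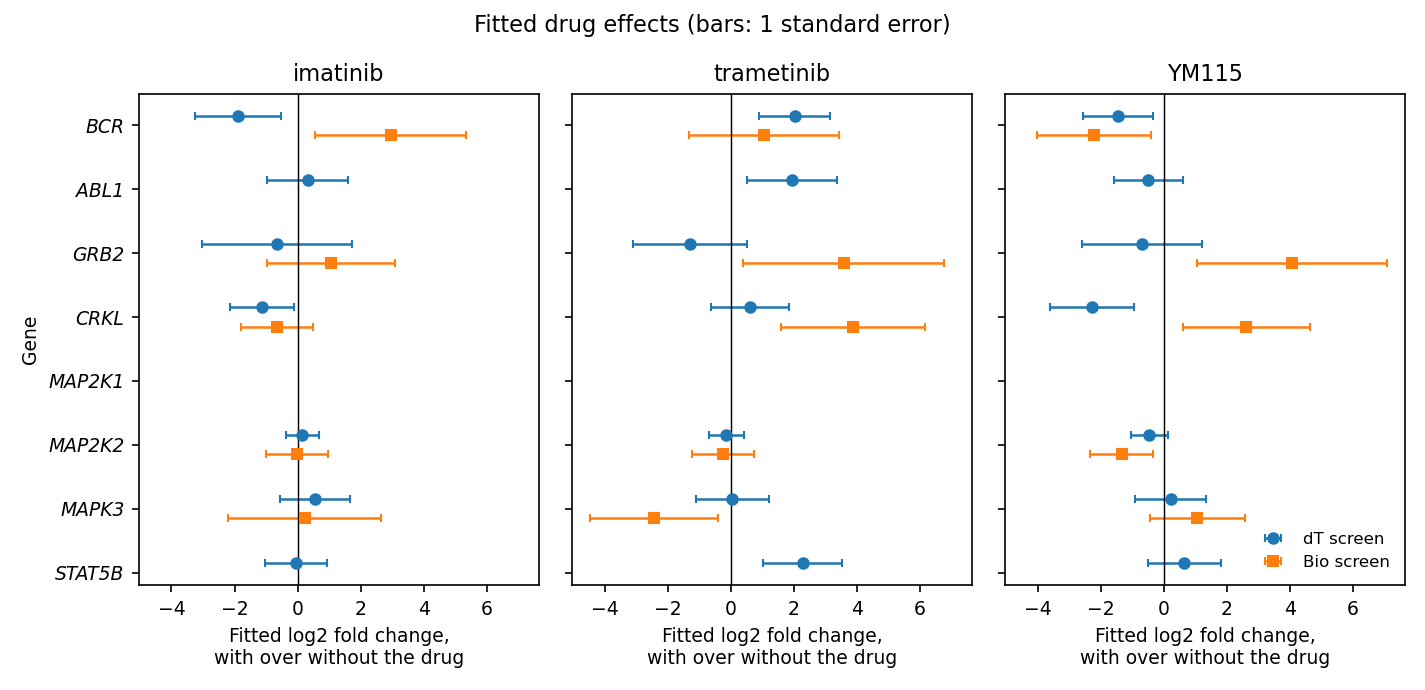
Fitted log2 fold change (x axis, with over without the drug) of each tested gene for imatinib, trametinib and YM115, in dT (blue circles) and Bio (orange squares), with bars of 1 standard error. The bars of MAP2K2 are the shortest in dT, at 0.54 to 0.59, and genes without a point were not tested in that screen.

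Imatinib acts on the product of the BCR-ABL fusion, whose mRNA does not hold the 3′ end of BCR. BCR was counted in 6 of 21 dT libraries with imatinib and 17 of 27 without it, with means of 32.6 ± 111 and 26.4 ± 54.9 CPM (SD). In Bio it was counted in 8 of 18 libraries with and 10 of 26 without imatinib, with means of 219 ± 464 and 177 ± 801 CPM. The fitted log2 fold changes were -1.90 (SE 1.35, adjusted p = 0.623, edgeR) in dT and 2.95 (SE 2.39, adjusted p = 0.624) in Bio. CRKL, a substrate of the fusion kinase, had 74.8 ± 121 CPM with and 174 ± 421 CPM without imatinib in dT, and 66.4 ± 162 and 103 ± 261 CPM in Bio. Its fitted changes were -1.14 (SE 1.01) and -0.66 (SE 1.15), both smaller than or near 1 SE. MAP2K2 had 668 ± 676 CPM with and 579 ± 445 CPM without imatinib in dT, a fitted change of 0.15 (SE 0.54), and -0.03 (SE 0.97) in Bio. GRB2 had a higher mean with imatinib in dT (147 ± 347 against 88.1 ± 153 CPM) but a fitted change of -0.66 (SE 2.37), so that mean and fit differ in sign. The mean CPM with imatinib was higher in 3 of 3 runs for GRB2 alone in dT (11.6% of all genes tested) and for 0 members in Bio (10.7%), and lower in 3 of 3 for 0 members in dT (18.5%) and for ABL1 in Bio (15.7%). The Bio share is of genes that passed the low-count filter, which ABL1 did not. With log2 depth as a covariate the low-count filter also let MAP2K1 in dT and ABL1 in Bio be tested, and both passed with imatinib, where 5.18% of all genes were called in dT and 8.27% in Bio. The fitted changes were -5.16 for MAP2K1 (adjusted p = 0.0274, edgeR; 4 reads in 1 of 21 libraries with and 196 reads in 6 of 27 without imatinib) and -6.51 for ABL1 (adjusted p = 0.0115, edgeR; 2 against 390 reads). Both genes had nearly all their reads in libraries without imatinib, and 147 of the 196 MAP2K1 reads came from 1 library. They passed the low-count filter through those libraries, so that little but a fall could be called. These calls are therefore no support for an effect of imatinib.

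Trametinib acts on MEK1 and MEK2. Of their genes, MAP2K2 gave no change past the test, and MAP2K1 was too sparse to be tested in either screen. MAP2K2 had 611 ± 626 CPM with and 624 ± 502 CPM without trametinib in dT, and the fitted change was -0.13 (SE 0.54, adjusted p = 0.969, edgeR). In Bio it had 719 ± 918 and 648 ± 738 CPM, with a fitted change of -0.24 (SE 0.97, adjusted p = 0.975). MAP2K1 had counts in 3 of 21 dT libraries with and 4 of 27 without trametinib, and in 1 and 0 Bio libraries. In dT the mean CPM with trametinib was higher in 3 of 3 runs for BCR, CRKL and STAT5B (15.3% of all genes tested) and lower in 3 of 3 for GRB2 (13.1%), which had 76.4 ± 158 against 143 ± 310 CPM and a fitted change of -1.29 (SE 1.81). In Bio it was higher in 3 of 3 runs for CRKL and STAT5B (12.8%) and lower in 3 of 3 for MAPK3 (14.8%). The Bio shares are of genes that passed the low-count filter, which STAT5B did not. STAT5B was counted in 18 of 21 dT libraries with and 13 of 27 without trametinib (187 ± 276 against 63.3 ± 107 CPM), with a fitted change of 2.28 (SE 1.25, adjusted p = 0.463, edgeR). BCR had 53.0 ± 116 against 10.6 ± 36.1 CPM in dT, with 2.03 (SE 1.12, adjusted p = 0.470, edgeR). CRKL had 151 ± 313 against 35.2 ± 82.3 CPM in Bio, with 3.86 (SE 2.28, adjusted p = 0.545, edgeR), and 219 ± 465 against 61.9 ± 125 CPM in dT, with 0.60 (SE 1.23, adjusted p = 0.931). MAPK3, the substrate of MEK, had 83.2 ± 97.0 against 102 ± 171 CPM in dT and 53.6 ± 157 against 191 ± 399 CPM in Bio. The fitted changes were 0.05 (SE 1.16) and -2.43 (SE 2.02).

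With YM115, the mean CPM was lower in 3 of 3 runs for CRKL, MAP2K2 and STAT5B in dT (16.2% of all genes tested) and for BCR and MAP2K2 in Bio (11.6%), while 0 members were higher in 3 of 3 (13.8% and 15.6% of all genes). The means of MAP2K2 were 527 ± 403 CPM with and 689 ± 646 CPM without YM115 in dT, and 414 ± 434 and 923 ± 999 CPM in Bio. The fitted log2 fold changes were -0.46 (SE 0.59, adjusted p = 0.823, edgeR) and -1.33 (SE 1.00, adjusted p = 0.571). CRKL had 28.1 ± 44.5 against 211 ± 420 CPM in dT, with a fitted change of -2.27 (SE 1.34, adjusted p = 0.466, edgeR). In Bio it had 80.0 ± 198 and 94.8 ± 250 CPM and a fitted change of 2.62 (SE 2.02, adjusted p = 0.579), again with mean and fit of opposite sign. Under RLE scaling the median change over all genes shifted by more than 0.1 in dT, from 0.07 to -0.10 for imatinib and from 0.21 to 0.06 for YM115.

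The screens differ in barcoding scheme, and a drug-by-screen term asked whether a drug effect differed between them. For imatinib 1 of 7 members tested was called (5.84% of 4705 genes were), for trametinib 0 of 7 (4.59%) and for YM115 0 of 7 (6.59%). The call was ABL1. It was counted in 13 of 21 dT libraries with imatinib (lowest 0, median 2.61, highest 265 CPM) and 13 of 27 without it (0, 0 and 832 CPM), with summed counts of 244 and 675. In Bio it was counted in 2 of 18 libraries with imatinib, with 1 read each, and in 7 of 26 without it (0, 0 and 1149 CPM), with 390 reads. The groups overlap in both screens, since most Bio libraries were at 0 in either arm. The Bio ratio of CPM over summed counts was 0.00633 (95% interval 7.63e-04 to 0.0230, counting error only). In dT this ratio was 0.439 (0.378 to 0.509), and the means were 33.2 ± 68.4 CPM with and 57.3 ± 164 CPM without imatinib (SD). The log2 fold change in Bio minus that in dT was -6.26 (SE 1.86, adjusted p = 0.0284, edgeR), while the imatinib effect in dT was 0.32 (SE 1.28, adjusted p = 0.964) and ABL1 was not tested alone in Bio. In dT the fit was thus above 0, whereas mean and summed counts were lower with imatinib. The call held in 7 of 10 alternatives with a value, over which the adjusted p ranged from 0.000212 to 0.385. It was lost without run 2 (adjusted p = 0.0732) and without run 3 (0.385). Of the Bio reads without imatinib, 188 came from a library of Trametinib_YM115 in run 2 and 94 from a DMSO_DMSO library in run 3. STAT5B had a like distribution in Bio, with 18 reads in 4 of 18 libraries with imatinib and 754 reads in 7 of 26 without it, and its term was -1.07 (SE 3.40, adjusted p = 0.910, edgeR). A share of 1 in 7 members lies near the background of 5.84%, and on simulated counts of this sparsity the same test also called unchanged genes at more than the nominal rate.

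**Figure D4:**
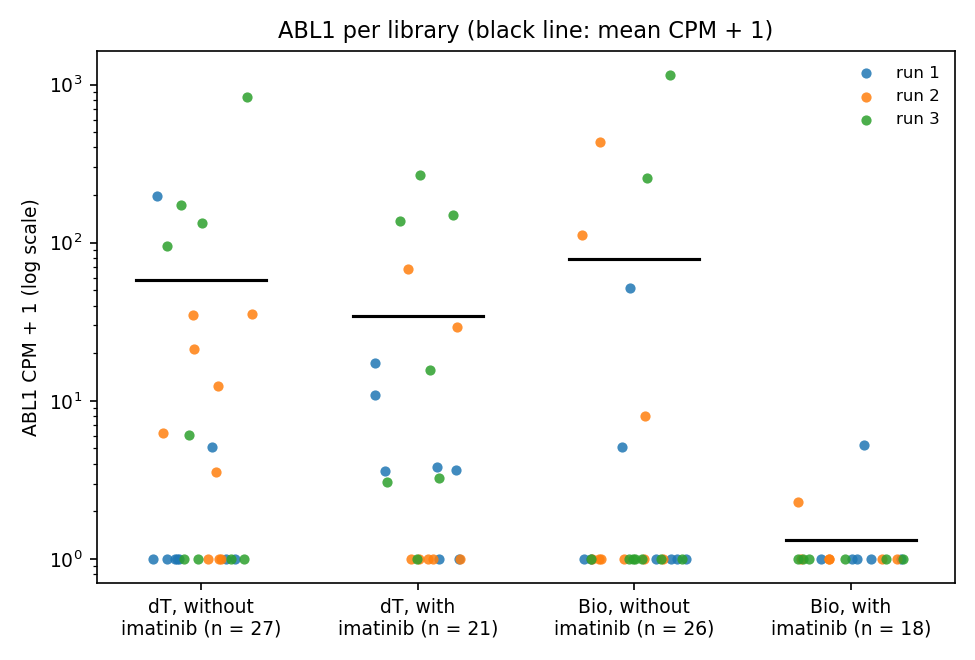
ABL1 CPM + 1 on a log axis in the in-screen libraries used, without and with imatinib, in dT (left) and Bio (right), colored by run; black lines are the mean CPM + 1. In Bio, 2 of 18 libraries with imatinib lie above the bottom, both under 10 CPM, against 7 of 26 without it.

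Other genes of the pathway were examined as lists. In the 6 drug comparisons 0 genes were called among adaptors and RAS regulators (0 to 4 tested), RAS, RAF and ERK paralogs (3 to 5), the STAT5 and PI3K arms (4 in each), ERK targets (0 to 3) and STAT5 targets (1 to 4). At an unadjusted p under 0.05 the sums over the 6 comparisons were 0, 2, 1, 3 and 3. DUSP6, an ERK phosphatase and a common ERK target, had no entry in the table used and was not analysed here. Of the paralogs, the GTPase HRAS was counted in 43 dT and 22 Bio libraries, more often than MAPK3 and GRB2. STAT5A was counted in 28 and 15 libraries, beside 31 and 11 for STAT5B, and PIM1, a kinase gene under STAT5 control, in 38 and 18.

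In the joint test over ordered pairs in Bio, 3 of 5 adaptor genes, 1 of 4 paralogs, 1 of 4 genes of the STAT5 and PI3K arms (STAT5A, adjusted p = 0.0207, edgeR), 1 of 3 ERK targets (ETV5, 0.0189) and 3 of 5 STAT5 targets were called, against 22.9% of all genes and 0 by DESeq2. In dT these lists gave 0 calls. The YM115-by-screen term called ETV5 (7.01, SE 1.93, adjusted p = 0.0162) and MCL1 (8.97, SE 2.67, adjusted p = 0.0275, edgeR), each a log2 fold change in Bio minus that in dT. Of the K562 markers, HBG2 was called for YM115 in both screens, with 0.58 (SE 0.08, adjusted p = 6.14e-06) in dT and 0.75 (SE 0.12, adjusted p = 0.000270) in Bio, and ALAS2, a heme synthesis enzyme, was lower in Bio (-6.06, SE 1.69, adjusted p = 0.0340, edgeR). HBG2 took the most reads of the marker list, and its part in the member levels was not tested.

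By the pattern of summed levels over the 16 dT pairs, the genes most like MAP2K2 were DCTN3 (Pearson r = 0.746), FAM78A (0.732) and IGF2R (0.707), and those most like CRKL were STK11 (0.842), TMEM164 (0.833) and RANBP9 (0.790). These are the highest of 3930 genes, the pairs share runs and depth, and the values are a description. MAP2K1 overlaps exons of SNAPC5 on the opposite strand, which had 1025 reads over all libraries, and whether counting used strand is not given in the sources used here, so that reads of both cannot be told apart. FBXW4P1, within the BCR gene on the same strand but without exon overlap, had 1045 reads.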

How the data were processed

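The authors deposited raw counts, whole numbers of reads per gene and library, from 3′-end libraries that were demultiplexed on the ligated barcodes. The submitters' processing notes name STAR 2.4.2a and GRCh38, and neither molecular identifiers nor strand-specific counting is described, so that intervals cover counting error only. Totals per library were used as depth and as the base of CPM. The table held 102 libraries, 24965 genes, of which 24539 had a symbol, and 0 columns of other samples.

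In-screen libraries with at least 1000 detected genes and at most 15% mitochondrial counts were fitted with edgeR 4.0.16 in R 4.3.3 (TMM, filterByExpr, glmQLFit, glmQLFTest), with run as a block and Benjamini-Hochberg adjustment over all genes tested. Each drug term was 1 for pairs that held the drug, whichever came first. The separate controls were compared with all 51 libraries per screen in the fit, so that libraries under the filter are included. The standard error is the absolute log2 fold change divided by the root of F. Alternatives were DESeq2 1.42.0, RLE scaling, other low-count filters, no block, leaving out runs, all libraries, depth as a covariate, single drugs only and counts summed per run. The fits were tested on simulated data, where directions were recovered but unchanged genes were called above the nominal rate in the drug and screen terms and in the joint test of dT.

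Run was used as a block because the submitters describe 6 raw files, 1 for each run and screen. The residuals of libraries from the same run correlated at 0.0171 in dT and 0.0152 in Bio on average, and those from different runs at -0.00853 and -0.00759. Of 102 replicate pairs, 0 were identical, and chi-square divided by its degrees of freedom was at least 5.62, with a median of 92.5. Replicates thus differed by more than counting error. The study describes the runs as independent biological experiments. Members and gene lists were chosen with earlier results of these data known. From the other lists, genes past the threshold were named, at most 4 for each comparison, with the most counted genes of a list, and the genes of highest correlation with the 2 members of most dT counts. Transcript ends were read from GENCODE release 29. Other tools were pandas 2.3.3, scipy 1.17.1, matplotlib 3.10.9 and numpy 2.4.6 under python 3.11.15. Some genes of the other lists are not reported here.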

Additional observations from a re-analysis of the deposited data

Results flagged for a closer look

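ABL1 was called in the imatinib-by-screen term, with a log2 fold change in Bio minus that in dT of -6.26 (adjusted p = 0.0284, edgeR), where 5.84% of all genes were called and the test called unchanged genes too often on simulated data. The term rests on 2 Bio reads with imatinib against 390 without it, and the call was lost without run 2 (adjusted p = 0.0732), without run 3 (0.385) and without a low-count filter (0.105). Members were also counted in the 4 Bio libraries left out for few detected genes, above the highest Bio DMSO_DMSO library. BCR reached 823 CPM (25 of 30359 reads) in run 1 of Imatinib_Imatinib, against 43.5 CPM. CRKL reached 597 CPM (15 reads) in run 2 and 7717 CPM (138 of 17882 reads) in run 3 of Imatinib_Imatinib, and 74.5 CPM (7 reads) in run 1 of DMSO_Trametinib, against 24.4 CPM. STAT5B reached 3353 CPM (315 of 93932 reads) in run 1 of DMSO_Trametinib, where all 3 Bio DMSO_DMSO libraries were at 0.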

How the results depend on the processing

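The number of members called stayed at 0 for trametinib and YM115 in both screens, for trametinib by screen and for the separate controls in dT under every alternative run. With depth as a covariate it became 1 for imatinib in dT (MAP2K1) and 1 in Bio (ABL1). Both genes passed the low-count filter there through libraries without imatinib. For any of the ordered pairs it became 2 in dT without a low-count filter and 1 by DESeq2, and in Bio 2 under RLE scaling and 1 with all in-screen libraries. For imatinib by screen it became 0 without a low-count filter (ABL1, adjusted p = 0.105, edgeR), 0 when only genes counted in 50% of libraries or more were kept, which left ABL1 untested, and 0 to 1 when a run was left out. DESeq2 called 1 member for YM115 by screen (CRKL) and 3 for the separate controls in Bio. The alternatives without the library with most ABL1 or other member counts were chosen after seeing the data.

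Without the replicate block, 2 members were called for any of the ordered pairs in dT (MAP2K1 and CRKL) and 2 in Bio (ABL1 and BCR), and the block changed no other count of members called. Without the block the fitted log2 fold change turned its sign for imatinib in GRB2 (0.12, dT), STAT5B (0.0051, dT), CRKL (0.30, Bio) and MAPK3 (-0.53, Bio), and for YM115 in dT in ABL1 (1.05) and GRB2 (0.065). With counts summed per run and the replicate block kept it turned for imatinib in ABL1 (-1.05, dT), GRB2 (-1.22, Bio), MAP2K2 (0.91, Bio) and MAPK3 (-0.24, Bio), for trametinib in MAPK3 (-0.36, dT), GRB2 (-0.11, Bio) and MAP2K2 (0.62, Bio), and for YM115 in MAPK3 (-0.014, dT), STAT5B (-0.43, dT) and CRKL (-1.23, Bio).

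Without a second active drug the sign turned for imatinib in dT in BCR (0.74), GRB2 (9.65) and MAP2K2 (-0.32), for trametinib in GRB2 (6.79, dT) and MAPK3 (5.56, Bio), and for YM115 in dT in ABL1 (0.16), GRB2 (7.95) and MAP2K2 (0.021). With depth as a covariate it turned in ABL1 (imatinib, dT, -0.32), CRKL (trametinib, dT, -0.52) and BCR (YM115, Bio, 1.56). It turned by DESeq2 in STAT5B (imatinib, dT, 0.031) and MAPK3 (trametinib, dT, -0.10), without a low-count filter in MAP2K2 (imatinib, Bio, 0.21), under the filter at 50% in MAP2K2 (imatinib, Bio, 0.020) and MAPK3 (trametinib, dT, -0.049), and with all in-screen libraries in CRKL (trametinib, Bio, -0.091, and YM115, Bio, -1.44) and MAP2K2 (trametinib, Bio, 0.081). The cause was not tested.

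When a run was left out, fits that turned ranged for imatinib in dT from -0.12 to 0.89 (ABL1), -2.44 to 1.25 (GRB2), -0.44 to 1.68 (MAPK3) and -0.26 to 0.25 (STAT5B), and in Bio from -0.59 to 4.51 (BCR), -2.32 to 0.51 (CRKL), -0.39 to 0.49 (MAP2K2) and -1.61 to 1.59 (MAPK3). For trametinib they ranged in dT from -2.83 to 0.33 (GRB2), -0.16 to 1.62 (CRKL), -0.33 to 0.052 (MAP2K2) and -0.58 to 0.93 (MAPK3), and in Bio from -0.054 to 3.72 (BCR) and -0.94 to 0.21 (MAP2K2). For YM115 in dT they ranged from -0.75 to 0.94 (ABL1), -2.44 to 1.30 (GRB2) and -0.87 to 1.26 (MAPK3), and for the separate controls in dT from -4.06 to 0.57 (MAP2K1). Of 466 recomputed fold changes 407 kept their sign and side of the threshold, and of the 56 of opposite sign 0 were called. Counts over all genes moved more. For any of the ordered pairs edgeR called 19 genes in dT and 1119 in Bio, but 2241 and 3458 without the block, 135 and 0 by DESeq2, and 67 to 113 and 11 to 33 when a run was left out. The joint test called 1003 (dT) and 414 (Bio) genes without a low-count filter and 22 and 2 under the filter at 50%. For imatinib, trametinib and YM115 in that order, the genes called by edgeR numbered 113, 54, 103 (dT) and 41, 34, 48 (Bio). With depth as a covariate the numbers were 272, 208, 310 (dT) and 218, 153, 199 (Bio), without a low-count filter 510, 468 and 503 in dT and 168, 182 and 203 in Bio, under the filter at 50% 5, 0 and 14 in dT and 0, 1 and 3 in Bio, without the block 12, 9 and 23 in dT and 5, 5 and 12 in Bio, and without a second active drug 2, 1 and 4 in dT and 0 each in Bio. DESeq2 called 102 for trametinib in dT and 110, 81 and 118 in Bio, and all in-screen libraries gave 70, 60 and 86 in Bio. The range when a run was left out was 30 to 46, 12 to 21 and 37 to 59 in dT and 19 to 27, 10 to 16 and 14 to 34 in Bio. By screen, the counts of 275, 216 and 310 became 668, 601 and 761 by DESeq2, 0, 0 and 6 under the filter at 50%, and 122 to 173, 94 to 109 and 125 to 135 when a run was left out. For the separate controls in Bio, the 2 genes became 9 under the filter at 50% and 0 without a low-count filter or under RLE scaling, and the 8 in dT became 2 without a low-count filter, 5 without the block and 3 to 13 when a run was left out. With counts summed per run 0 genes were called for imatinib and for trametinib in either screen, and for YM115 0 in dT and 1 in Bio. Precision was limited by the few libraries in which a member was counted.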
